A study of Mus musculus with 102 samples.

Results

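Active enhancers of mouse embryonic stem (ES) cells that stood apart from dense groups and listed few chromatin proteins numbered 3287 of 12492 active enhancers, and of 67697 regions with H3K4me1 or H3K4me3 in all. They are called factor-poor enhancers here. A region was counted when the deposited table called it active and when it lay in no group of 4 or more active regions joined at gaps of 12.5 kb or less. It also had to list 3 or fewer of 17 factors. The low factor number, the spacing and a log2 H3K27ac enrichment of 1 or more were therefore set by the choice, and they are given below as descriptions. The other 6994 unclustered active enhancers listed 4 or more of the 17 factors and are called factor-rich. A further 2211 active enhancers were clustered, and 19567 regions with H3K4me1 were listed as poised. Of the poised regions, 4722 had an H3K27ac value, all under the limit, and the rest listed none.

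Chromatin immunoprecipitation with sequencing (ChIP-seq) had been carried out to ask which proteins share enhancers with H3K4me1 and depend on it. R1 ES cells with catalytically inactive MLL3 and MLL4 (catalytic-dead cells) were set against wild-type R1 cells, with 2 libraries per mark in each line, and the labels do not say whether the catalytic-dead line is 1 clone. The regions and factors are given by factor name and were read as those of 129/Ola ES cells, the only line with libraries of all 17 factors. In that line 14 of the 17 factors had 2 libraries, 2 had 3 libraries and SSRP1 had 1 library. Counts are not part of the deposited tables, which hold 1 value for each mark or factor. The depth behind a value is therefore unknown, no replicate spread could be given and no test between lines or region sets was possible. Intervals in parentheses are 95% intervals (Wilson for shares, binomial for medians) that take regions as independent and cover counting error only.

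Enhancers are DNA elements that raise transcription of genes at a distance. Nucleosomes at them carry monomethylated lysine 4 of histone H3 (H3K4me1), written mainly by the methyltransferases MLL3 and MLL4, and acetylation of lysine 27 (H3K27ac) marks those in use, while trimethylation (H3K4me3) is typical of promoters. Active enhancers in ES cells are known to bind nucleosome remodellers, Mediator, which connects transcription factors to RNA polymerase II, and cohesin, which holds DNA loops.

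The factor-poor enhancers listed 2.09 ± 0.82 factors on average (SD over regions), against 6.97 ± 2.47 at factor-rich enhancers. Of the 3287 regions, 32 listed none of the 17, 881 listed 1, 1144 listed 2 and 1230 listed 3. Just outside the limit, 1233 unclustered active enhancers listed 4. The regions with none were on the active list through a name that was not analysed here. By spacing, 1882 stood alone, 881 were in a group of 2 and 524 in a group of 3, and 254 active enhancers with 3 or fewer factors lay just outside in groups of 4. "Unclustered" refers to other active enhancers only. A poised enhancer lay within 12.5 kb of 50.3% of the factor-poor enhancers, and a region with both H3K4me1 and H3K4me3 within that distance of 40.7%, against 44.0% and 49.9% for factor-rich enhancers.

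The splicing-related proteins were the group listed most often at the factor-poor enhancers. They were also the largest group, with 4 factors against 1 to 3 in the others, and more factors raise the share with at least 1. At least 1 of the 4 was listed at 2052 regions (62.4%), against 95.1% of factor-rich enhancers. SRSF2, a serine- and arginine-rich splicing factor, led with 40.8% of factor-poor regions (39.1 to 42.5) and 70.2% of factor-rich regions. SRSF1, a splicing factor of the same family, was at 18.1% and 54.0%. SAP18, a subunit of a splicing-linked complex and of Sin3 corepressors, was at 11.4% and 49.6%, and PHF5A, a component of the SF3B splicing complex, at 5.54% and 30.4%. PHF5A was the factor listed least often at the factor-poor enhancers.

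SMC3, a core subunit of cohesin, was the factor with the next highest share after SRSF2. It was listed at 20.4% of factor-poor enhancers (19.1 to 21.9), against 44.0% of factor-rich ones. PHRF1, a protein with a PHD finger and a RING finger, was at 14.8% and 52.4%. SSRP1, part of FACT, a chaperone that handles histones during transcription, was at 12.7% and 48.8%.

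Among remodellers, the ISWI group was listed at 28.2% of factor-poor enhancers, against 73.8% of factor-rich ones. Its ATPase SNF2H was at 16.3% and 55.2%. BAZ1A, a partner subunit of SNF2H, was at 6.15% and 37.1%, and WSTF, another partner subunit, at 7.30% and 11.1%. The BAF group was at 11.9% and 46.2%, with its ATPase BRG1 at 5.87% and 28.2% and its core subunit BAF155 at 6.27% and 26.3%. The RuvBL ATPases, which serve remodellers such as INO80, were at 14.4% and 57.7%, with RUVBL1 at 6.51% and 32.6% and RUVBL2 at 8.37% and 40.9%.

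Mediator was listed at 26.5% of factor-poor enhancers and 75.6% of factor-rich ones. MED1, a subunit contacted by many activators, was at 11.5% and 41.4%. MED12, of the kinase module, was at 8.58% and 32.1%, and SUR2, a tail subunit also named MED23, at 8.15% and 43.0%. Every one of the 17 shares was lower at factor-poor enhancers, and since the limit on the factor number lowers the mean share, this is a description only.

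**Figure D1:**
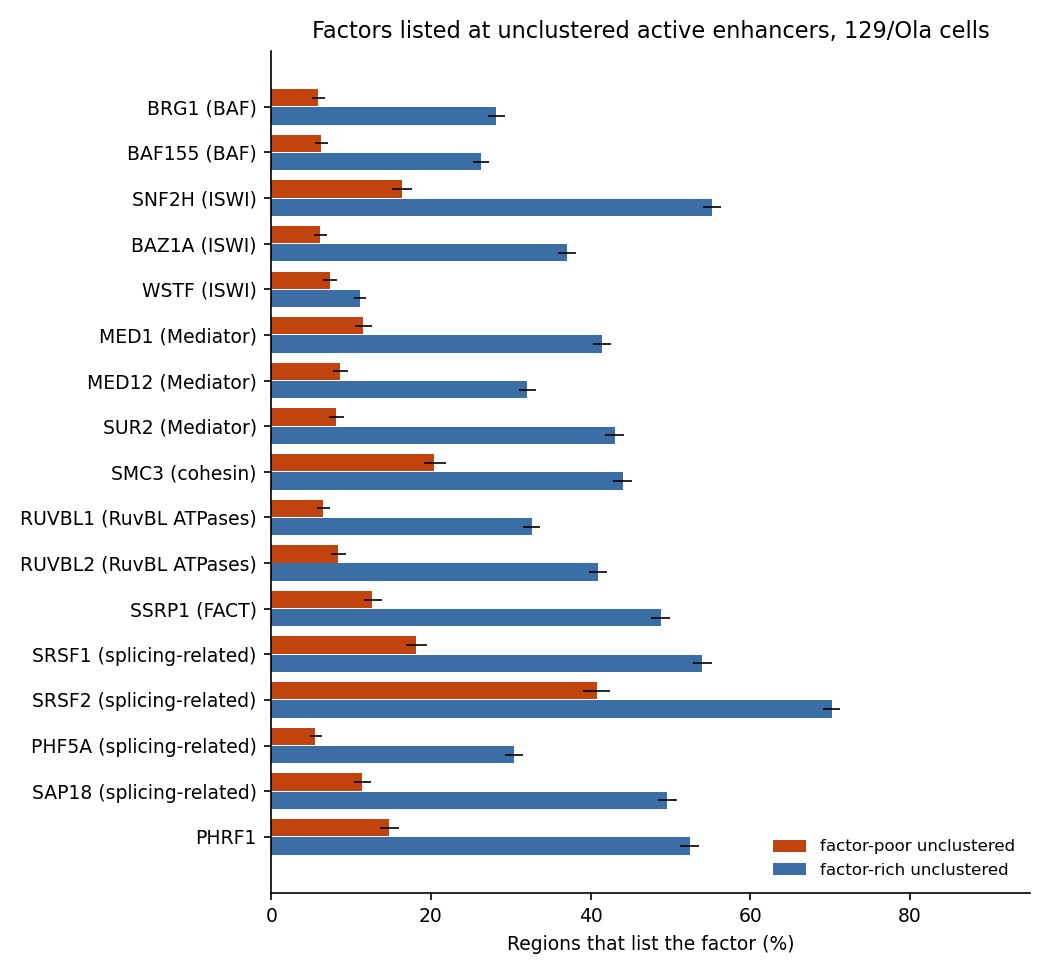
Share of regions that list each of the 17 factors (percent, horizontal axis) at 3287 factor-poor (orange, upper bar) and 6994 factor-rich (blue, lower bar) unclustered active enhancers of 129/Ola cells. Error bars are 95% Wilson intervals for counting error; SRSF2 has the longest bar in both sets, and WSTF has the 2 bars closest in ratio.

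Shares of all listings are given as a description only, since the limit of 3 factors acts on the same listings and can shift them. The factor-poor enhancers held 6859 listings, against 48772 at factor-rich enhancers. SRSF2 made up 19.5% of them and 10.1% of the factor-rich listings. SMC3 made up 9.80% and 6.31%, and WSTF 3.50% and 1.60%. SUR2 took 3.91% and 6.17%, and BAZ1A 2.95% and 5.32%. SRSF1 made up 8.67% and 7.74%. Thus SRSF2, SMC3, WSTF and SRSF1 took larger parts of the listings of factor-poor enhancers, and the other factors, SUR2 and BAZ1A most, smaller ones. At poised enhancers, chosen without a factor limit, the shares were 13.1% for SRSF2, 8.57% for SMC3, 3.45% for WSTF and 8.70% for SRSF1. They were 5.01% for SUR2 and 5.09% for BAZ1A there. Each region of the active list carries at least 1 of 13 names, 12 of which are among the 17. The active list was not selected on BAF155, RUVBL1, RUVBL2, SSRP1 or SAP18, so shares can follow this selection.

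Subunits of 1 complex were seldom listed together at a factor-poor enhancer. Of 870 regions with a Mediator subunit, 56 listed 2 or more (6.44%) and 1 listed all 3, against 44.5% of Mediator-positive factor-rich enhancers with 2 or more. BRG1 and BAF155 shared 9 of 390 BAF-positive regions (2.31%), against 17.8% of factor-rich ones. RUVBL1 and RUVBL2 shared 16 of 473 (3.38%), against 27.5%. A limit of 3 factors lowers each of these shares by itself.

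The regions held 572 different combinations of factors, of which 186 occurred at 1 region each. The 10 most frequent combinations covered 893 regions. SRSF2 without any of the other 16 was found at 263 regions, SMC3 alone at 150, SRSF1 alone at 87 and SNF2H alone at 66. The most frequent combinations of 2 were SMC3 with SRSF2 (68 regions), SRSF1 with SRSF2 (52) and SRSF2 with SAP18 (46). PHRF1 stood alone at 55 regions, MED1 at 54, WSTF at 52 and MED12 at 46. BAF155 was alone at 2 regions and SSRP1 at 1. Both are among the names on which the active list was not selected, so a region with either of them alone entered the list through a name not analysed here.

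Enrichment of the factors was also lower where they were listed. The median listed log2 enrichment was 0.81 over the factor-poor listings and 0.95 over the factor-rich ones, with 18.1% and 41.6% at a log2 value of 1 or more. Values under a 1.5-fold enrichment are not listed. SRSF2 had a median of 0.76 at factor-poor and 0.94 at factor-rich enhancers, and SSRP1 0.91 and 1.07. WSTF had the highest median among the 17 in both sets, 0.998 and 1.22. The median was lower at factor-poor enhancers for all 17 factors. A factor under the listing limit is not counted, so the number of factors and their enrichment are not independent measures.

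The highest factor values at factor-poor enhancers belonged to WSTF, which held the top 10. The region at chr11:51689768-51690016 (mm9, like all positions here) had a WSTF log2 enrichment of 4.38, and chr4:105133497-105133875 had 3.91. These regions were singled out after their values were seen. The 10 were from 219 to 379 bp wide, and 5 of them overlapped no R1 H3K4me1 peak. Where WSTF was listed alone, its highest value was 2.07, at chr13:55356505-55356948. This was the highest value of any factor listed alone. After it came 1.504 for SRSF1, at chr7:25674742-25674950, 1.49 for SRSF2, at chr7:17416411-17416805, and 1.48 for SMC3, at chr1:195329906-195331984.

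The factor-poor enhancers were broader than factor-rich ones. Their median width was 1022 bp (963 to 1087), with quartiles of 373 and 2059 bp, against 460.5 bp at factor-rich, 1126 bp at clustered and 377 bp at poised enhancers. They were wider than factor-rich enhancers on 19 of 19 autosomes. Width was ordered by factor number within the set. The median was 1788 bp with no factor, 1362 bp with 1, 979.5 bp with 2 and 839.5 bp with 3, and 644 bp just outside the limit with 4. Spearman's rho of width with factor number was -0.14 over the 3287 regions and -0.25 over 10281 unclustered active enhancers. Factors at nearby sites of 1 region share its borders, and the sources used here do not say how borders were set.

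**Figure D2:**
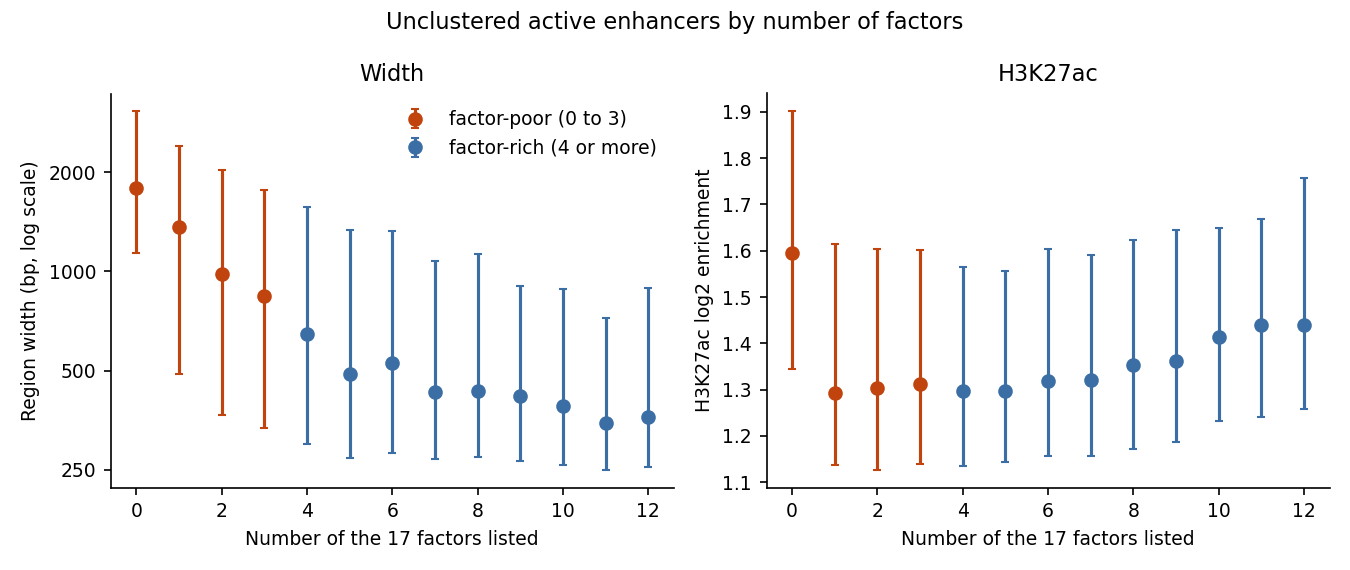
Width in bp on a log scale (left) and H3K27ac log2 enrichment (right) against the number of the 17 factors listed, for factor-poor (orange, 0 to 3) and factor-rich (blue, 4 or more; shown up to 12) unclustered active enhancers. Points are medians and bars span the quartiles over regions; median width is 1788 bp with no factor and 644 bp with 4, while median H3K27ac stays near 1.3 from 1 to 7 factors.

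H3K27ac varied little with the factor number in this range. The median log2 enrichment was 1.31 at factor-poor enhancers (1.29 to 1.32), against 1.34 at factor-rich and 1.42 at clustered ones. With 1, 2 and 3 factors it was 1.29, 1.30 and 1.31, and with 4 it was 1.30. The 32 regions without any of the 17 had the highest median, 1.59. The plot of width and H3K27ac by factor number shows the widths going down from 0 to 4 factors and the H3K27ac medians level from 1 to 4.

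Some factor-poor enhancers had strong H3K27ac. The highest log2 value, 3.34, was at chr16:32302521-32302854, which listed BRG1 (0.98), SMC3 (0.89) and PHRF1 (0.84). The next, 3.21, was at chr4:133456948-133457725, with SRSF2 (0.65) and SAP18 (1.04). Among regions with none of the 17 factors, chr12:53482898-53483477 had the highest value, 2.77. The 5 highest factor-poor regions had between 2 and 3 of the factors each and lay between 3.16 and 3.34.

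The next comparison asked what happened to H3K4 methylation at the factor-poor enhancers when MLL3 and MLL4 lost their catalytic activity. None of these R1 values entered the choice of regions. Each region took the R1 peak that overlapped it most. An H3K4me1 peak of R1 cells overlapped 2789 of the 3287 regions (84.8%, 83.6 to 86.0), against 73.6% of factor-rich, 86.4% of clustered and 61.4% of poised enhancers. An H3K4me2 peak overlapped 63.2% of factor-poor and 43.2% of factor-rich enhancers. For H3K4me3 it was 29.6% and 16.7%. Both shares were higher at factor-poor enhancers on 19 of 19 autosomes. Wider regions overlapped peaks more often, and within width classes the order was the same for H3K4me2 and H3K4me3. Widths still differed within a class, with medians of 2545.5 bp at factor-poor and 2396 bp at factor-rich enhancers above 1500 bp. The part of width in the shares was not tested. For H3K4me1 the factor-poor and factor-rich shares were 67.1% and 58.7% up to 500 bp, but 97.72% and 97.78% above 1500 bp. Among regions up to 500 bp wide, an H3K4me2 peak overlapped 38.8% of factor-poor and 28.6% of factor-rich enhancers, and above 1500 bp 85.1% and 77.0%.

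H3K4me1 was lower in catalytic-dead cells. The median fold enrichment at factor-poor enhancers was 2.06 in catalytic-dead cells (quartiles 1.40 and 2.91), against 3.39 in wild-type cells (3.06 and 3.74). The median log2 ratio was -0.74 (-0.78 to -0.71), and it was below 0 on each of 19 autosomes, between -1.01 and -0.53. By the authors' deposited class, which is a 2-fold limit and no test, 1041 of the 2789 regions (37.3%) were decreased, against 22.3% of all regions with an H3K4me1 peak and 36.8% of those with H3K4me1 and no H3K4me3 in 129/Ola cells. Increases were called at 24 (0.861%), against 14.9% of all regions, 2.32% of H3K4me1-only regions and 1.15% of factor-rich enhancers. The share of decreases at factor-poor enhancers was thus near that of H3K4me1-only regions as a whole.

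Over all regions with a peak, factor-poor and factor-rich enhancers had close medians. The median log2 ratio was -0.75 at factor-rich enhancers, 0.013 below that of factor-poor ones (interval of the difference -0.035 to 0.060), and factor-poor enhancers had the lower median on 10 of 19 autosomes. The sets differ in their share of R1 H3K4me3 peaks, and at regions without such a peak the difference was -0.09 (-0.15 to -0.03), with factor-poor enhancers the lower. Within the set, the medians were -0.75, -0.72 and -0.76 with 1, 2 and 3 factors, and -0.73 with 4. At clustered enhancers the median was -0.59 and at poised ones -0.64. The medians also differed with spacing. Factor-poor enhancers that stood alone had a median of -0.79, those in groups of 2 -0.76 and those in groups of 3 -0.56, while clustered regions with 3 or fewer factors had -0.51. In the same order an R1 H3K4me3 peak overlapped 26.2%, 32.8%, 36.1% and 42.5% of the regions, and the median width was 855.5, 1273, 1224 and 1673 bp. The part of these in the differences was not tested. Over all active enhancers in groups of 1, 2 and 3, whatever their factor number, the medians were -0.80, -0.73 and -0.62.

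H3K4me2 was lower by more. At the 2079 factor-poor enhancers with a peak, its median fold enrichment was 2.08 in catalytic-dead cells (quartiles 1.15 and 3.65), against 4.51 in wild-type cells (3.65 and 5.79). The median log2 ratio was -1.07 (-1.13 to -1.02), against -0.92 at factor-rich, -0.88 at clustered and -0.55 at poised enhancers. Decreases were called at 1109 regions (53.3%), against 20.1% of all regions with a peak and 46.7% of factor-rich enhancers. An increase was called at 1 region (0.0481%), against 0.789% of all regions. The difference between factor-poor and factor-rich medians was -0.15 (-0.22 to -0.09), in this direction on 17 of 19 autosomes. It was -0.38 (-0.46 to -0.29) at regions without an R1 H3K4me3 peak, and -0.05 (-0.12 to 0.02) with the values in the order as deposited.

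H3K4me3 had a median near the same level in both lines. At the 972 factor-poor enhancers with a peak, the median fold enrichment was 4.32 in catalytic-dead and 3.95 in wild-type cells, both under the 9.32 found in each line over all regions with a peak. The median log2 ratio was -0.0026 (-0.069 to 0.042). Decreases were called at 79 regions (8.13%, against 2.56% of all regions) and increases at 67 (6.89%, against 2.20%). These shares were close to those of factor-rich enhancers, with 8.20% decreased and 6.15% increased, and of all H3K4me1-only regions, with 6.94% and 6.56%. By their table these regions have no H3K4me3 in 129/Ola cells, and R1 is another line.

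**Figure D3:**
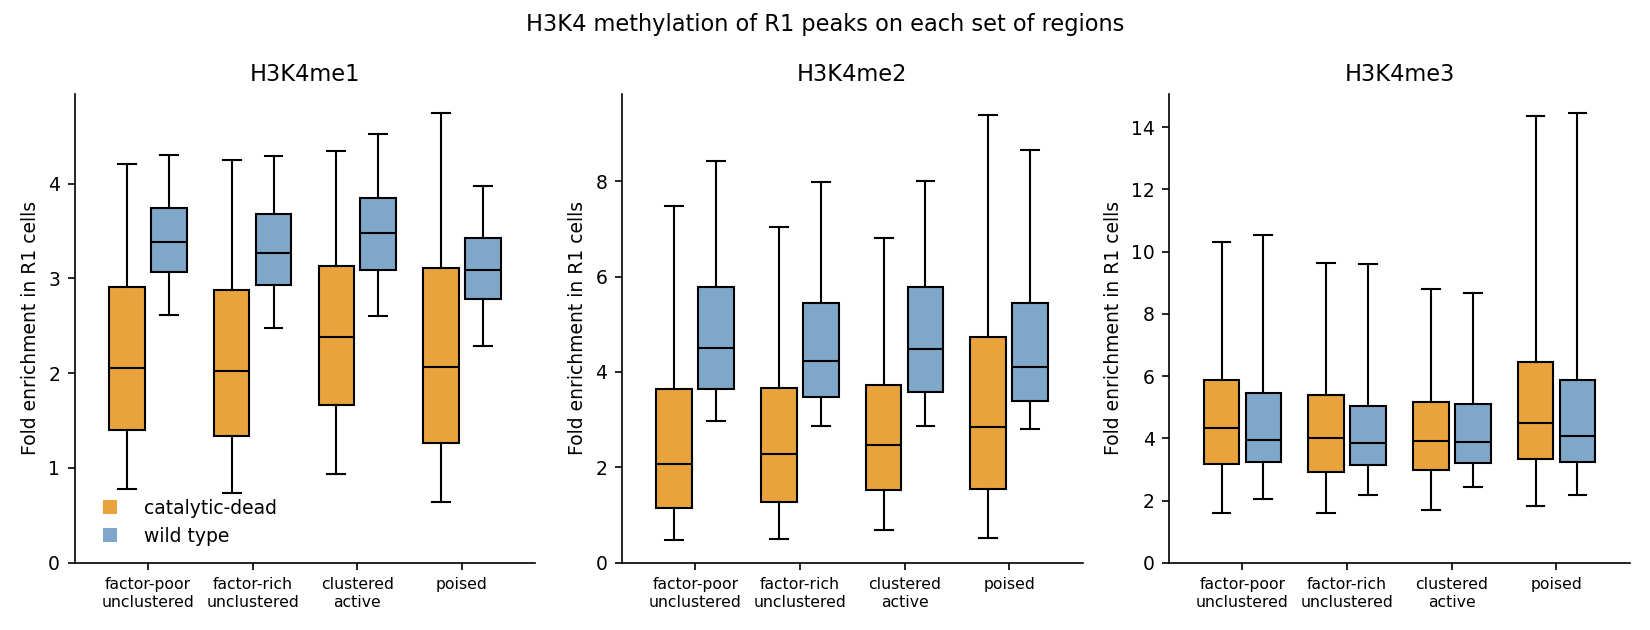
Fold enrichment of H3K4me1, H3K4me2 and H3K4me3 in catalytic-dead (orange, left of each pair) and wild-type (blue) R1 cells, over regions with an R1 peak in 4 sets from 129/Ola cells. Boxes span the quartiles with the median as a line, whiskers the 5th to 95th percentile; at factor-poor enhancers the medians are 2.06 and 3.39 for H3K4me1, 2.08 and 4.51 for H3K4me2, and 4.32 and 3.95 for H3K4me3.

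The scale between the lines bears on these values. Over all peaks of H3K4me1 the median log2 ratio was -0.21, over those of H3K4me2 -0.13 and over those of H3K4me3 -0.03. Relative to it, the factor-poor medians were -0.53 and -0.95 for H3K4me1 and H3K4me2, and 0.03 for H3K4me3. Decreases of H3K4me1 were then 28.9% of factor-poor enhancers, against 17.5% of all regions, and of H3K4me2 47.8% and 17.8%.

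The change of H3K4me1 differed with the other marks that R1 cells carried at a factor-poor enhancer. Of the 3287 regions, 1208 (36.8%) overlapped neither an H3K4me2 nor an H3K4me3 peak, 1107 (33.7%) overlapped an H3K4me2 peak only, and 972 (29.6%) overlapped both, while none overlapped H3K4me3 only. In this order, an H3K4me1 peak overlapped 755 (62.5%), 1071 (96.7%) and 963 (99.1%) of them, and the H3K4me1 values cover those regions only. With neither, the median H3K4me1 fold enrichment was 1.45 in catalytic-dead and 3.17 in wild-type cells, a log2 ratio of -1.16 (-1.23 to -1.06). With H3K4me2 only, it was 1.81 and 3.50, a log2 ratio of -0.96 (-1.01 to -0.90). With both marks it was 2.93 and 3.46, a log2 ratio of -0.28 (-0.32 to -0.23). The wild-type medians thus lay close together and the catalytic-dead medians apart. Wild-type H3K4me1 medians were also close between whole sets, at 3.39 for factor-poor, 3.27 for factor-rich, 3.48 for clustered and 3.09 for poised enhancers. Each value needs a called R1 peak, and the part of peak calling in these levels and ratios was not tested.

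Among regions with an H3K4me1 peak, H3K4me1 decreases were called at 57.5% with neither other peak, 47.1% with H3K4me2 only and 10.7% with both. At factor-rich enhancers these shares were 52.5%, 39.7% and 10.3%, and over all regions with an H3K4me1 peak the share was 22.3%. At factor-poor enhancers H3K4me2 differed in the same direction. Its median fold enrichment was 1.30 in catalytic-dead and 3.74 in wild-type cells at regions with H3K4me2 only, a log2 ratio of -1.57, with 72.6% called decreased. At regions with both peaks it was 3.52 and 5.71, a log2 ratio of -0.68, with 31.4% called decreased. The H3K4me2 shares at factor-rich enhancers were 57.7% and 29.4%, against 20.1% of all regions with an H3K4me2 peak. On 19 of 19 autosomes H3K4me1 at factor-poor enhancers was lower relative to wild type with neither peak, and with H3K4me2 only, than with both. Regions with neither were lower than those with H3K4me2 only on 15 of 19.

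**Figure D4:**
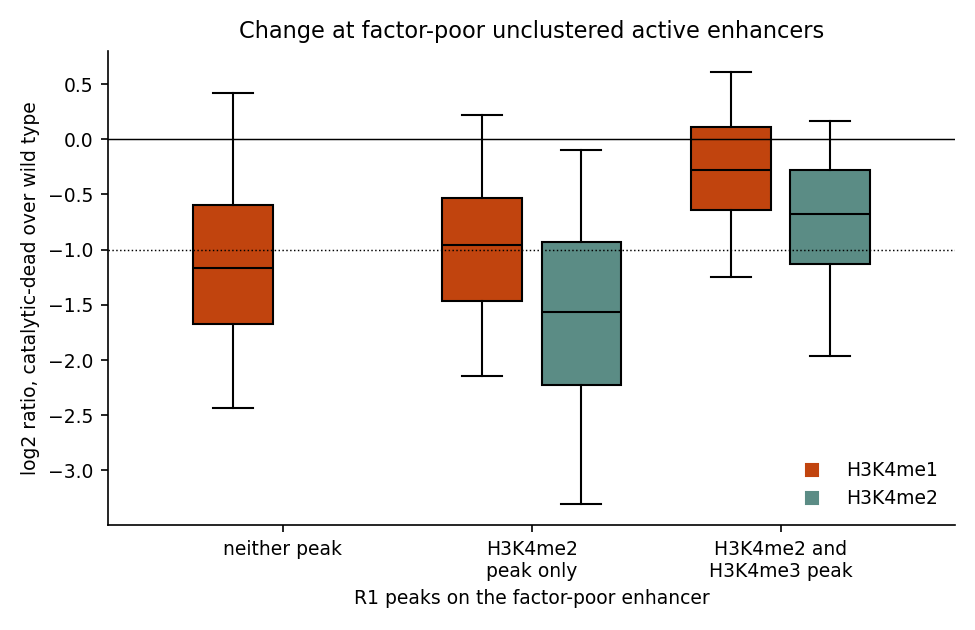
Log2 ratio (fold enrichment in catalytic-dead divided by that in wild-type cells) for H3K4me1 (orange) and H3K4me2 (green) at factor-poor enhancers, by the other R1 peaks they overlap. Boxes span the quartiles with the median as a line, whiskers the 5th to 95th percentile, the solid line is no change and the dotted line a 2-fold decrease; H3K4me1 medians are -1.16, -0.96 and -0.28 from left to right.

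The 3 kinds of region differed in other ways. Median width was 429.5 bp with neither peak, 1199 bp with H3K4me2 only and 1867.5 bp with both, and the H3K27ac median was 1.20, 1.34 and 1.51. The order of the H3K4me1 change held within each width class. Among regions up to 500 bp the medians were -1.16, -0.93 and -0.08, between that and 1500 bp -1.16, -0.89 and -0.19, and above 1500 bp -1.18, -1.06 and -0.33. Factor-rich enhancers showed the same order, at -1.06, -0.81 and -0.26, as did clustered ones at -0.83, -0.66 and -0.33. Fold enrichments of different marks in 1 line may share an input library, and the part of this in the order was not tested.

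Most factor-poor enhancers with decreased H3K4me1 also had decreased H3K4me2 where they carried a peak of it. Of 607 regions with decreased H3K4me1 and an H3K4me2 peak, 93.9% had decreased H3K4me2, against 36.5% of 1414 regions with unchanged H3K4me1. Whatever the H3K4me1 class, H3K4me2 was decreased at 53.3% of factor-poor enhancers and 20.1% of all regions with an H3K4me2 peak. The joint count was made for factor-poor enhancers only, so it is not shown to be particular to them. Across the 2034 factor-poor enhancers with peaks of both marks, their log2 ratios had a Spearman's rho of 0.82. This is a description across regions that share libraries, and possibly inputs, within a line.

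H3K27ac in 129/Ola cells went with the presence of R1 peaks, while the median H3K4me1 change differed little between H3K27ac classes. In 4 classes of equal size from low to high H3K27ac, an H3K4me2 peak overlapped 46.6%, 52.4%, 65.8% and 88.2% of factor-poor enhancers, and an H3K4me3 peak 17.5%, 19.8%, 31.2% and 49.8%. The H3K4me1 median stayed between -0.78 and -0.70 in the 4 classes. The H3K4me2 median was -0.93, -0.98, -1.11 and -1.20 from the lowest to the highest class. Median width was 814, 922.5, 1063 and 1344 bp in the same order. The part of width and of the H3K4me3 share in these values was not tested. Peaks that the authors' table calls proximal made up 336 of the 2789 (12.05%). Their H3K4me1 median was -0.44, with fold enrichments of 2.63 in catalytic-dead and 3.31 in wild-type cells, against -0.78 at distal peaks.

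Single regions showed how wide the range was. Among the factor-poor enhancers with an H3K4me1 mean of both lines above the median of the set, the largest decrease was at chr7:120181322-120183466, which listed SRSF2 alone. H3K4me1 had a fold enrichment of 0.771 in catalytic-dead and 5.39 in wild-type cells there, a log2 ratio of -2.80. H3K4me2 had 0.165 and 4.87, a log2 ratio of -4.88. Next came chr19:12273027-12273567, which listed none of the 17 factors and had 0.976 in catalytic-dead and 4.87 in wild-type cells for H3K4me1. The third was chr6:48817148-48817455, with BRG1, RUVBL1 and PHF5A, at 0.965 and 4.74. All of the 5 largest decreases were at distal peaks and at regions that stood alone. Of all 2789 factor-poor enhancers with an H3K4me1 peak, 1554 stood alone and 12.05% had a proximal peak. H3K4me2 was also decreased at 4 of the 5, while chr6:48817148-48817455 had no H3K4me2 peak.

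At the region with the highest H3K27ac, chr16:32302521-32302854, H3K4me1 had 1.14 in catalytic-dead and 3.30 in wild-type cells, and H3K4me2 0.626 and 4.06. At chr4:133456948-133457725 the values were 1.10 and 3.26 for H3K4me1 and 0.463 and 4.25 for H3K4me2. The other 3 of the 5 regions with the highest H3K27ac had unchanged H3K4me1 by the 2-fold limit. It was 2.26 in catalytic-dead and 3.78 in wild-type cells at chr5:31936205-31936543, 3.18 and 4.32 at chr4:106519491-106522328, and 2.72 and 3.49 at chr11:62308551-62309877. H3K4me2 was called decreased at all 3, with log2 ratios of -1.34, -1.21 and -1.19. Each of the 3 overlapped an R1 H3K4me3 peak, which chr16:32302521-32302854 and chr4:133456948-133457725 did not. High H3K27ac in 129/Ola cells thus stood beside both kinds of H3K4me1 value in R1 cells.

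Increases were few. The largest was at the proximal peak of chr6:88418187-88418456, with SRSF2 alone, at 6.34 in catalytic-dead and 2.55 in wild-type cells. The distal peak of chr3:102902401-102903584, with MED1 and SRSF2, had 5.64 and 2.33. A pair of regions on chromosome 5, chr5:100850224-100850615 and chr5:100853212-100853755, lay on 1 peak with 7.22 and 3.07, so they give 1 value.

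Among the 17 factors, the H3K4me1 change differed most between factor-poor enhancers with and without SMC3. At 584 regions with SMC3 and an H3K4me1 peak, the median log2 ratio was -0.53 (-0.58 to -0.47), against -0.80 (-0.85 to -0.76) at 2205 regions without it. The cohesin-listed regions had the higher value on 17 of 19 autosomes. For H3K4me2 the medians were -0.88 with SMC3 and -1.16 without it, also higher on 17 of 19. SMC3 was picked out here after the values of all 17 factors were seen. Regions with SMC3 were wider, at a median of 1383 bp against 952 bp, and had an R1 H3K4me3 peak more often, at 39.0% against 27.2%. The difference was in the same direction in each width class, at -0.72 and -0.89 up to 500 bp, -0.54 and -0.81 from there to 1500 bp, and -0.48 and -0.76 above. It was also in that direction with an R1 H3K4me3 peak, at -0.17 with SMC3 and -0.31 without it, and without such a peak, at -0.84 and -1.08. Factor-rich enhancers had -0.56 with SMC3 and -0.89 without it.

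SNF2H went the other way, with a median of -0.90 (-0.98 to -0.83) where it was listed and -0.72 (-0.76 to -0.67) where it was not. Listed regions had the higher value on 3 of 19 autosomes. Up to 500 bp the medians were close, at -0.88 and -0.86, while from there to 1500 bp they were -0.96 and -0.72 and above that -0.87 and -0.64. An R1 H3K4me3 peak overlapped 22.3% of regions with SNF2H, against 31.0% of the others. Where such a peak was absent the medians were -1.15 with SNF2H and -1.01 without it. Where it was present they were -0.33 and -0.27. RUVBL2 had -0.56 where listed and -0.76 where not, higher on 13 of 19 autosomes, but without an R1 H3K4me3 peak its medians were -1.13 and -1.02, the opposite order. Regions with RUVBL2 overlapped an R1 H3K4me3 peak in 43.3% of cases, against 28.3% of the others. The part of width and of H3K4me3 peaks in the SNF2H and RUVBL2 differences was not tested. For the other 14 factors the intervals of listed and unlisted regions overlapped, which does not show that the values were equal. SRSF2 was among them, with -0.80 where listed and -0.70 where not, and so was BAF155, with -0.87 and -0.73.

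**Figure D5:**
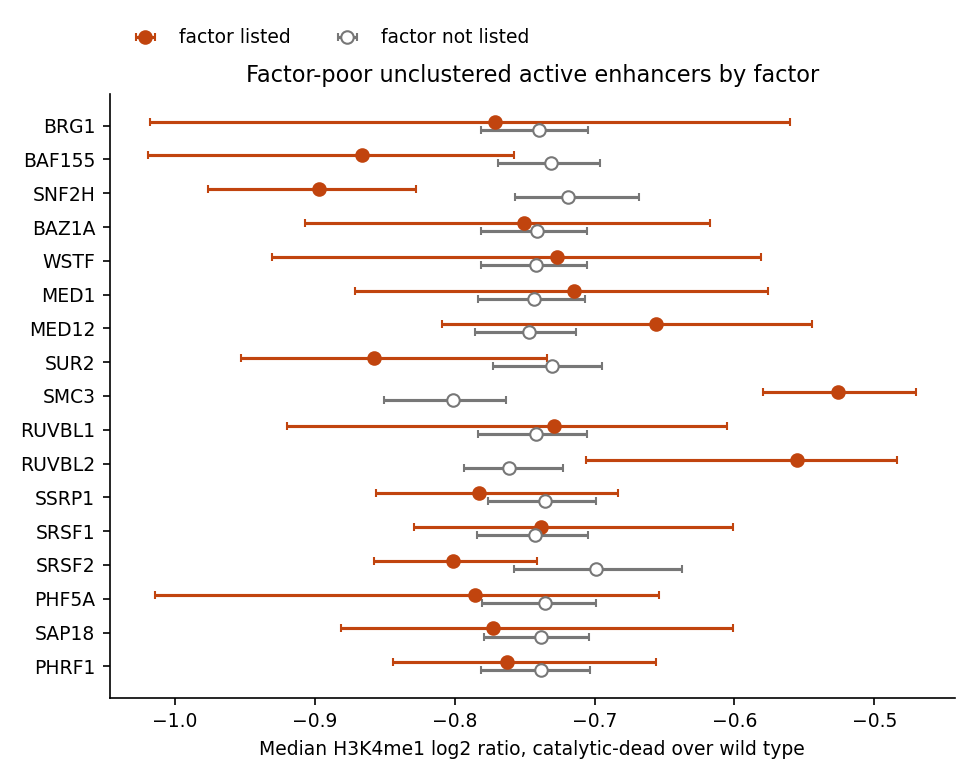
Median H3K4me1 log2 ratio, catalytic-dead over wild-type R1 cells, at factor-poor enhancers that list a factor (filled orange) and at those that do not (open grey), with 95% binomial intervals of the median. SMC3 (-0.53 and -0.80) and RUVBL2 (-0.56 and -0.76) lie to the right of their unlisted regions, and SNF2H (-0.90 and -0.72) to the left.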

How the data were processed

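The 102 libraries in the labels were ChIP-seq of mouse ES cells: 45 from 129/Ola cells, 14 from catalytic-dead and 14 from wild-type R1 cells, and 14 from MLL3/4 double-knockout cells with 15 from their floxed parent, the last 2 lines not being used here. Per the submitters' processing notes the build was mm9, with Bowtie, Picard and MACS2 for the 129/Ola libraries and Picard 2.11.0, deepTools 2.5.1 and 2.5.3, BWA 0.7.13-r1126 and MACS2 2.1.0.20150731 for the R1 libraries. The sources used here do not give how libraries were pooled, borders set or enrichment normalised.

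The authors deposited region tables with a log2 enrichment per factor, with 31 names. Of these, 17 factors and H3K27ac were used by value, H3K4me1 and H3K4me3 by presence, and 11 were not analysed here. The authors also deposited R1 peak tables with a fold enrichment (ratio) per line, marked FE per the file headers. The deposited class reads decreased for ratios up to 0.5 and increased from 2 upward, with 0 exceptions. The R1 value columns ran through the chromosomes in number order and the positions in text order, and they were put back in step. On chromosome 1, where the orders coincide, the rank correlation (Spearman) between width and fold enrichment in wild-type cells was 0.215, 0.661 and 0.674 for H3K4me1, H3K4me2 and H3K4me3. On chromosomes 2 to 19 the mean was 0.253, 0.675 and 0.687 restored and 0.0025, 0.0055 and -0.0038 as deposited.

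Factors were counted in the table that holds all 17 names, since the active table holds 12 of them. Each region took the R1 peak with the largest overlap of at least 1 bp, and log2 ratios had no pseudocount. The 2789 regions with an H3K4me1 peak lay on 2747 different peaks, over which the median log2 ratio was -0.74. Members, factor groups and comparisons were chosen with earlier results of these data known. The regions named are those with the highest H3K27ac, with no factor and the highest H3K27ac, with the largest H3K4me1 changes among the 1394 above the median mean, and with the highest value of a factor listed alone; of each kind some are printed. With 1 value per line there was no test. Scripts used Python 3.11.15, pandas 2.3.3, numpy 2.4.6, scipy 1.17.1 and matplotlib 3.10.9, and were tested on simulated data. Alternatives changed the factor limit, the gap, the listing limit, H3K27ac, overlap, layout, centring, low values, pseudocount, distal peaks and standardisation.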

Additional observations from a re-analysis of the deposited data

How the results depend on the processing

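Of the 48 alternative values, 26 stayed within the limits set for no change. The number of factor-poor enhancers was 2057 with at most 2 factors, 7910 with factors counted from a log2 value of 1, and 4986, including all 3287, with factors counted in the active table alone, an alternative chosen after seeing the data. With an overlap of at least 50% of the region, 79.5% had an R1 H3K4me1 peak. The median H3K4me1 log2 ratio was -0.79 with gaps of 25 kb, -0.28 with the values in the order as deposited, -0.53 after centring on the median of all peaks, -0.55 without the lowest 25% of peaks, -0.54 with a pseudocount of 1, -0.78 at distal peaks and -1.02 at regions without an R1 H3K4me3 peak. For H3K4me2 it was -0.21, -0.95, -0.67, -0.81, -1.14 and -1.57 from the order as deposited onward. The difference between factor-poor and factor-rich H3K4me1 medians was -0.038 in the order as deposited, -0.035 without the lowest 25% of peaks and -0.090 (-0.15 to -0.03) without an R1 H3K4me3 peak, against 0.013 in the main setting, so its sign depends on the setting. For H3K4me2 the difference was -0.049 in the order as deposited, with an interval that reached above 0, and -0.38 without an R1 H3K4me3 peak. The last setting was also chosen after seeing the data. The cause of these shifts was not tested, except that the order as deposited joins positions to values from elsewhere if the restored order is right, and rho of the H3K4me1 and H3K4me2 changes was 0.047 there. No paired analysis was possible because the tables give 1 value per line. Depth is unknown, and fold enrichments under 1 carry the least signal behind a ratio.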

Other observations

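The factor-poor share of active enhancers varied between chromosomes, from 15.1% on chromosome 11 (174 of 1151) to 39.0% on chromosome 3 (158 of 405), with 38.01% on chromosome 6 (206 of 542). Chromosome 11 held the most active enhancers and chromosome 4 followed with 1110, of which 21.98% were factor-poor. On the X chromosome 8 of 23 active enhancers were factor-poor, and 7 of them overlapped an R1 H3K4me1 peak. These 7 had a median H3K4me1 log2 ratio of -1.07.

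The nearest active enhancer lay at a median of 16465 bp from factor-poor and 16729 bp from factor-rich enhancers. The nearest poised enhancer lay at 12397 and 15648.5 bp, and the nearest region with both H3K4me1 and H3K4me3 at 18278 and 12553 bp. The nearest H3K4me3-only region lay at 52594 and 60365 bp. Factor-poor enhancers were thus nearer to poised enhancers and H3K4me3-only regions and farther from regions with both marks. These are medians over regions without a test.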
